A study of Mus musculus with 38 samples.

Results

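RelA-TA-KI primary mouse embryonic fibroblasts treated with TNF for 8 h were compared with untreated RelA-TA-KI fibroblasts of the same TNF time course. The members were the 4 libraries that the labels give as these groups, 2 treated and 2 untreated, of 38 libraries in the whole series. TNF (tumour necrosis factor), an inflammatory cytokine, was given at 10 ng/ml after overnight starvation in 0.5% BCS, and the untreated cells were starved in the same way. All cells were of the C57BL/6 background and of embryonic origin. Both RelA-TA-KI groups carried the homozygous knock-in alleles, so that the mutant RelA was there before and after TNF. WT fibroblasts, also 2 libraries treated for 8 h and 2 untreated, were the comparison for the size of a response. The labels place the knock-in within a study of RelA transactivation but do not give the protein change. They also do not say whether replicates were separate embryos or cultures. The p-values therefore measure only the spread between the libraries of the TNF time course. Polyadenylated RNA was sequenced. The deposited gene counts summed to 8395076 and 9382161 in the 8 h libraries, against 7795402 and 8237160 in the untreated ones.

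RelA is an NF-kB subunit with a transactivation domain, the part of the protein that recruits the transcription machinery after the factor has bound DNA. TNF frees RelA from its IkB inhibitors through the IkB kinase complex, and the same receptor also signals through MAP kinases. In fibroblasts the NF-kB arm is known for chemokines, cytokines, adhesion molecules and its own inhibitors, while late responses also come from secreted factors that act back on the cells.

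The labelled cell type was checked first. All 12 fibroblast markers were detected in every library. Together they held 29648 and 32434 CPM (counts per 1000000 counts, scaled for library composition) at 8 h, against 34129 and 36878 CPM untreated. Rela mRNA was present at 128 and 120.0 CPM at 8 h, against 69.5 and 67.2 CPM untreated (log2 fold change 0.86 ± 0.06, edgeR adjusted p = 2.5e-07), which measures the transcript and not the mutation. Markers of other cells were also detected. All 21 macrophage markers were tested, none of them at 0. Their sum was 2741 and 5213 CPM at 8 h, against 1820 and 3059 CPM untreated, and Lyz2, Cybb and Cd14 rose while the other 18 did not pass the test (16 rose and 3 fell with the replicate number as a block). The Lyz2 call was lost without 8 h replicate 2 (edgeR adjusted p = 0.30), without untreated replicate 1 (0.19) and in a fit of the 4 libraries alone (0.053). Each of the 21 was higher in replicate 2 than in replicate 1 at 8 h, by a median of 1.91-fold. WT cells gave macrophage sums of 1667 and 2662 CPM at 8 h, against 1352 and 2105 CPM untreated. Endothelial, neural and lymphocyte markers were low, with sums of at most 75.9, 71.5 and 3.52 CPM at 8 h, against at most 90.7, 135 and 4.87 CPM untreated. Muscle markers summed to 228 and 197 CPM at 8 h, against 234 and 103 CPM untreated. Epithelial markers summed to 139 and 138 CPM at 8 h, against 56.1 and 71.6 CPM untreated. In WT cells the epithelial sums were 55.7 and 59.2 CPM at 8 h, against 172 and 38.6 CPM untreated. WT untreated replicate 1 was thus far above WT untreated replicate 2, and its part in differences between genotypes was not tested. Adipocyte and chondrocyte markers summed to 299.97 and 619 CPM at 8 h, against 197 and 124 CPM untreated. In bulk libraries a change in the number of cells of a type and a change in RNA per cell cannot be told apart.

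Of 13843 genes tested, 2988 rose (21.6%) and 2838 fell (20.5%) in RelA-TA-KI cells at 8 h (edgeR quasi-likelihood test, adjusted p below 0.05). These are the background shares against which each gene group is read. The change was at least 2-fold for 727 of the genes that rose (5.25%) and for 877 of those that fell (6.34%). In WT cells 1664 genes rose (12.0%) and 1218 fell (8.80%). With the replicate number as a block, the background was 27.4% higher and 25.9% lower in RelA-TA-KI cells, and counts of a list with this block are given where they differ by more than 1.5 times. The block background in WT cells was 17.3% higher and 15.5% lower. In what follows, values per library are CPM for replicate 1 and then replicate 2, and RelA-TA-KI cells are meant unless WT cells are named. Each ± is a standard error on the log2 scale. A difference of responses is the log2 fold change of RelA-TA-KI cells minus that of WT cells, so that a negative value means a weaker rise or a deeper fall in the mutant. It also takes in any gap between the untreated levels of the genotypes.

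The 15 largest rises by log2 fold change were mainly of inflammatory genes. Clec4e, a C-type lectin receptor of myeloid cells, had 53.03 and 160.0 CPM at 8 h, against 0.368 and 0.580 CPM untreated (log2 fold change 7.76 ± 0.79, edgeR adjusted p = 4.1e-06). The scavenger receptor gene Marco, the interleukin-1 genes Il1b and Il1a, the itaconate enzyme gene Acod1 and the fatty acid receptor gene Gpr84 were in the same group, and all are also well known from macrophages. Il1b had 276 counts in both 8 h libraries together against 1 in both untreated ones, a ratio of 275 with an interval of 48.9 to 10894. For Marco there were 180 counts against 1, a ratio of 179 (31.8 to 7118), and for the TNF receptor adaptor gene Traf1 there were 384 counts against 3, a ratio of 127 (43.3 to 621). The bradykinin receptor gene Bdkrb1 had 86 counts against 2, a ratio of 42.8 (11.5 to 359). These exact 95% intervals cover counting error only, and with untreated counts of 1 to 3 they are wide. Of the 15 genes 13 were higher in replicate 2 than in replicate 1 at 8 h, by a median of 1.57-fold, as were the macrophage markers (sums of 2741 and 5213 CPM at 8 h, against 1820 and 3059 CPM untreated), whose part in these rises was not tested. The group was completed by 5 chemokines, the interferon-inducible gene Ifi205 and the predicted gene Gm16685.

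**Figure D1:**
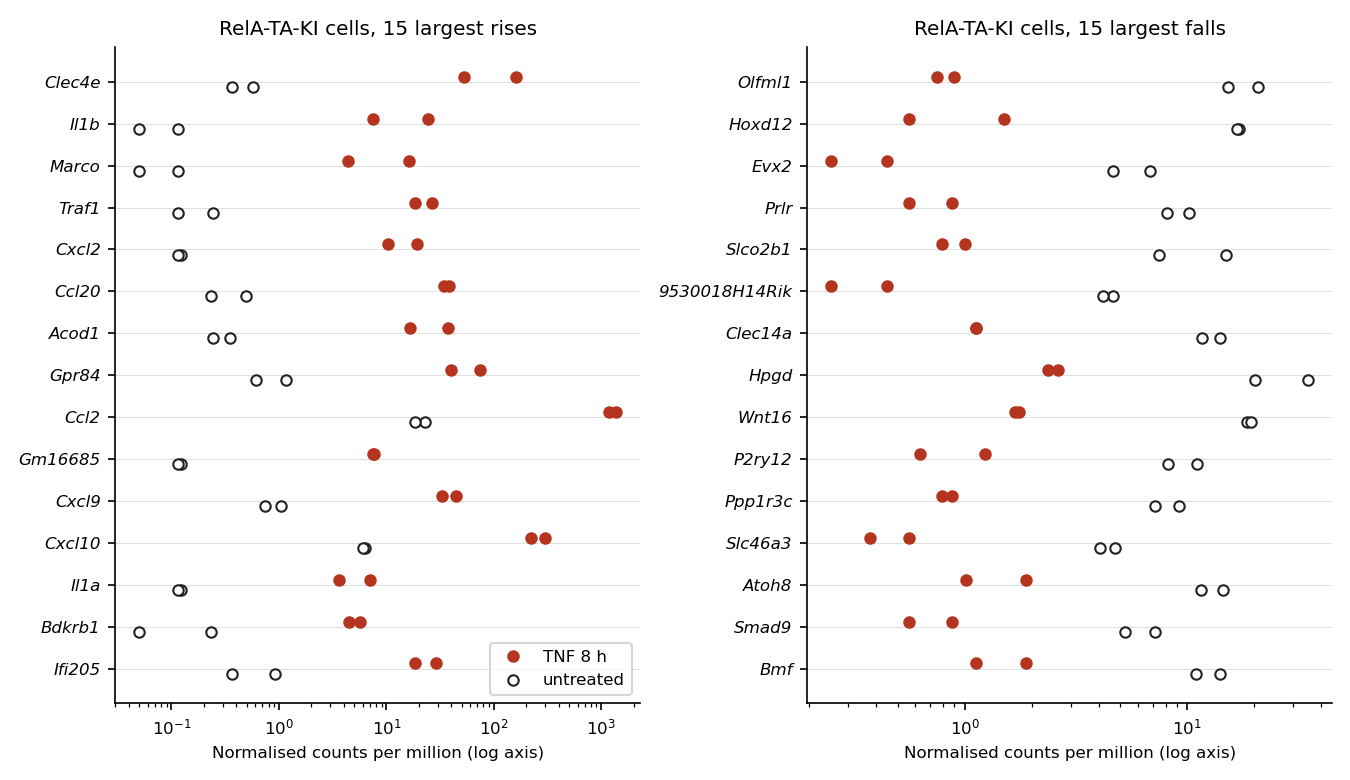
Normalised CPM (log axis) in each RelA-TA-KI library for the 15 genes with the largest rises (left panel) and the 15 with the largest falls (right panel), with 8 h as filled circles and untreated as open circles; values below 0.05 CPM are drawn at 0.05. In each of the 30 genes both 8 h libraries lie on the same side of both untreated ones, as the rule that chose them requires.

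The 15 largest falls were of other kinds. Olfml1, a secreted olfactomedin-like protein, had 0.754 and 0.901 CPM at 8 h, against 15.2 and 20.7 CPM untreated (log2 fold change -4.41 ± 0.56, edgeR adjusted p = 2.8e-05). Hoxd12 and its neighbour Evx2, both limb patterning genes, and the noncoding gene 9530018H14Rik at chr6:52256218-52257460 of mm10 are at Hox clusters. Evx2 had 0.251 and 0.450 CPM at 8 h, against 4.67 and 6.84 CPM untreated (log2 fold change -3.96 ± 0.37). Prlr, the prolactin receptor, had 0.880 and 0.563 CPM at 8 h, against 8.11 and 10.2 CPM untreated (log2 fold change -3.65 ± 0.35). Wnt16, a secreted Wnt ligand, had 1.76 and 1.69 CPM at 8 h, against 18.5 and 19.5 CPM untreated (log2 fold change -3.45 ± 0.17). In each of these genes every untreated library was above both 8 h libraries, as the rule that chose them requires. The BMP signal transducer Smad9, the bHLH factor Atoh8 and the pro-apoptotic BH3-only gene Bmf were in the same group, with log2 fold changes of -3.10 ± 0.46, -3.17 ± 0.32 and -3.06 ± 0.58.

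Genes of NF-kB regulation rose in the mutant cells. Of 35 IkB proteins and NF-kB feedback regulators 23 rose and none fell (2 fell with the block), with a median log2 fold change of 0.74. This list also holds kinases and adaptors that activate the pathway, so that the count is not one of inhibitors alone. In WT cells 22 rose. The difference of responses was called negative for 10 of the 35 and positive for 1 (3 with the block), against a background of 3.42% and 3.45% (9.82% and 11.4% with the block). The count of 10 was 6 without RelA-TA-KI untreated replicate 1 or 2, without WT untreated replicate 2 and in a fit of the 8 libraries alone. Nfkbie, which encodes IkB epsilon, had 31.2 and 33.1 CPM at 8 h, against 5.28 and 4.52 CPM untreated (log2 fold change 2.71 ± 0.20, edgeR adjusted p = 2.2e-07). In WT cells Nfkbie had 119 and 135 CPM at 8 h, against 4.93 and 6.35 CPM untreated (difference of responses -1.75 ± 0.30, edgeR adjusted p = 0.0035). The untreated levels of Nfkbie were alike, and both WT 8 h libraries were more than 3-fold above both mutant ones. All 5 Rel family genes rose. Nfkb2, which encodes the p100 precursor, had 202 and 209.5 CPM at 8 h, against 48.8 and 44.4 CPM untreated (log2 fold change 2.14 ± 0.07). Relb, the partner of processed p100, had 45.1 and 41.995 CPM at 8 h, against 13.5 and 10.9 CPM untreated (log2 fold change 1.84 ± 0.13). In WT cells Relb had 100.3 and 109 CPM at 8 h, against 15.2 and 13.6 CPM untreated (difference of responses -1.03 ± 0.19, edgeR adjusted p = 0.0057). Ikbkg, the regulatory subunit of the upstream IkB kinase, did not pass the test and had 53.3 and 54.6 CPM at 8 h, against 58.7 and 58.2 CPM untreated (edgeR adjusted p = 0.24).

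Chemokine genes rose, with 11 of 18 CC and other chemokines higher and 1 lower. Ccl20, which draws CCR6-bearing leukocytes, had 38.3 and 34.2 CPM at 8 h, against 0.491 and 0.232 CPM untreated (log2 fold change 6.60 ± 0.23, edgeR adjusted p = 2.4e-10). Its promoter is shown because it holds a match to the kappaB consensus, the letters that NF-kB dimers bind. The RefSeq window on GRCm38.p6, 250 bases before to 50 after the start, is chr1:83116516-83116815 on the plus strand. The match, on the opposite strand, is in capitals and its first base is 80 before the start.
Ccl20: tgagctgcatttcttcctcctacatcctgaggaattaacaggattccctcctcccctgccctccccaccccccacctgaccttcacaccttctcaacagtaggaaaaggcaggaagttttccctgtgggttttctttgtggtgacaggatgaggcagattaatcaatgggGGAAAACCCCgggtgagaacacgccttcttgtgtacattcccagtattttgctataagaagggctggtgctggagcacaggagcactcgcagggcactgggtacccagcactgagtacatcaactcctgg
The same consensus, searched on both strands, was found in 6.60% of the 10592 tested genes that have a window. It was in 10 of 29 windows of the feedback list (34.5%) and in 3 of 12 windows of the 15 largest rises. Ccl7, a monocyte attractant, had 371 and 469 CPM at 8 h, against 17.9 and 15.8 CPM untreated (log2 fold change 4.64 ± 0.22). Ccl5, a T cell attractant, had 13.6 and 9.57 CPM at 8 h, against 0.614 and 1.04 CPM untreated (log2 fold change 3.76 ± 0.37). In WT cells Ccl5 had 264 and 334 CPM at 8 h, against 0.725 and 0.908 CPM untreated (difference of responses -4.70 ± 0.75, edgeR adjusted p = 0.0026), and without untreated RelA-TA-KI replicate 2 the adjusted p of that difference was 0.075 (edgeR). The mutant thus had a rise of Ccl5 that was called, at levels far under the WT ones. Cxcl12, the constitutive stromal chemokine, was the member that fell, with 211 and 186 CPM at 8 h, against 423 and 417 CPM untreated (log2 fold change -1.08 ± 0.10). In WT cells Cxcl12 had 303 and 303 CPM at 8 h, against 311 and 371 CPM untreated (difference of responses -0.91 ± 0.15, edgeR adjusted p = 0.0025). Of 7 neutrophil-attracting CXC chemokines 5 rose and 1 fell, and 3 rose without RelA-TA-KI 8 h replicate 2. Cxcl1 had 17.7 and 44.4 CPM at 8 h, against 1.97 and 2.90 CPM untreated (log2 fold change 3.67 ± 0.41), so that the 8 h libraries were more than 2-fold apart and both above the untreated ones. All 3 CXCR3 ligands rose. Cxcl10 had 222 and 301 CPM at 8 h, against 6.26 and 6.03 CPM untreated (log2 fold change 5.41 ± 0.38). Cxcl11 had no counts in the untreated libraries and was at least 5.64-fold higher at 8 h, with 3 counts over both untreated libraries as the floor. The Cxcl11 call was lost without RelA-TA-KI 8 h replicate 2 (edgeR adjusted p = 0.15), untreated replicate 1 (0.054) or untreated replicate 2 (0.065).

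Cytokine genes rose in 15 of 24 cases and fell in 1 (3 with the block). Lif, of the interleukin-6 family, had 129 and 109 CPM at 8 h, against 7.98 and 6.72 CPM untreated (log2 fold change 4.02 ± 0.22, edgeR adjusted p = 2e-08). In WT cells Lif had 47.8 and 31.04 CPM at 8 h, against 11.3 and 9.88 CPM untreated (difference of responses 2.11 ± 0.32, edgeR adjusted p = 0.0018). Lif was the higher in both mutant 8 h libraries although its untreated level was a little below that of WT cells. Il6 itself had 7.92 and 14.6 CPM at 8 h, against 0.983 and 0.580 CPM untreated (log2 fold change 3.84 ± 0.39). Csf2, which encodes GM-CSF, was at least 8.96-fold higher at 8 h on the floor given above. The alarmin Il33 had 3.52 and 6.87 CPM at 8 h, against 12.7 and 12.98 CPM untreated, which did not pass the test (edgeR adjusted p = 0.057, and 0.00084 with the block).

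Growth factor genes rose as well. Of 27 growth factors and EGF receptor ligands 15 rose and 2 fell (4 with the block), with a median log2 fold change of 0.94. In WT cells 5 rose and 1 fell (8 and 6 with the block), with a median of -0.03. The difference of responses was called positive for 5 of the 27 and negative for 1 (16 and 1 with the block). Fewer were called positive when WT untreated replicate 1 was left out. Pdgfb, a mitogen of mesenchymal cells, had 45.1 and 46.9 CPM at 8 h, against 5.90 and 6.14 CPM untreated (log2 fold change 2.93 ± 0.17). The EGF receptor ligand gene Hbegf had 204 and 158 CPM at 8 h, against 26.3 and 17.97 CPM untreated (log2 fold change 3.04 ± 0.42). In WT cells Hbegf had 64.4 and 36.8 CPM at 8 h, against 60.2 and 32.8 CPM untreated (difference of responses 2.89 ± 0.58, edgeR adjusted p = 0.0095). Its relative Ereg had 55.9 and 43.3 CPM at 8 h, against 7.002 and 6.03 CPM untreated (log2 fold change 2.93 ± 0.43), and WT cells had 21.8 and 18.9 CPM at 8 h, against 14.9 and 6.96 CPM untreated. For both ligands the mutant 8 h libraries were the highest of the 8. Untreated Hbegf was lower in both mutant libraries than in both WT ones. Areg, a further ligand, was at lower levels, with 8.80 and 5.97 CPM at 8 h, against 0.614 and 0.580 CPM untreated (log2 fold change 3.59 ± 0.57). In WT cells Areg had 0.768 and 0.754 CPM at 8 h, against 2.90 and 0.504 CPM untreated (difference of responses 4.61 ± 0.89, edgeR adjusted p = 0.0075). The call of a difference was lost in 2 of the 14 alternatives, with an adjusted p of up to 0.057 (edgeR), for Hbegf, and lost in 2 of the 14 alternatives, with an adjusted p of up to 0.094, for Areg. Angpt1, a ligand of the vessel receptor TIE2, moved the other way, with 9.80 and 7.32 CPM at 8 h, against 47.4 and 44.3 CPM untreated (log2 fold change -2.43 ± 0.18, edgeR adjusted p = 2e-07). In WT cells Angpt1 had 41.2 and 50.5 CPM at 8 h, against 40.8 and 44.8 CPM untreated (difference of responses -2.52 ± 0.23, edgeR adjusted p = 5.4e-05). The mutant 8 h libraries were thus below every other library of these groups.

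Feedback inhibitors of receptor and MAP kinase signalling rose. Of 17 MAP kinase phosphatase, Sprouty and Spred family genes 15 rose and none fell, with a median of 0.94. In WT cells 3 rose and 1 fell (2 with the block), with a median of 0.16. Errfi1, which encodes an inhibitor of the EGF receptor kinase, had 514 and 475 CPM at 8 h, against 55.9 and 45.7 CPM untreated (log2 fold change 3.28 ± 0.17, edgeR adjusted p = 1.1e-08). In WT cells Errfi1 had 120.1 and 111 CPM at 8 h, against 67.7 and 56.98 CPM untreated (difference of responses 2.39 ± 0.23, edgeR adjusted p = 5.4e-05). Both mutant 8 h libraries were more than 3-fold above every WT library. The promoters of Errfi1 and Dusp5 are shown because they hold letters known for factors downstream of these kinases. The Errfi1 window is chr4:150854820-150855119 on the plus strand, for 1 of the 2 starts in the table. It has TGACGTCA, the palindrome of cAMP response elements (CRE), from 51 bases before the start. The Dusp5 window is chr19:53528895-53529194 on the plus strand. It has adjacent matches to the CArG box consensus of serum response factor, from 82 and from 72 bases before the start. Matches are in capitals.
Errfi1: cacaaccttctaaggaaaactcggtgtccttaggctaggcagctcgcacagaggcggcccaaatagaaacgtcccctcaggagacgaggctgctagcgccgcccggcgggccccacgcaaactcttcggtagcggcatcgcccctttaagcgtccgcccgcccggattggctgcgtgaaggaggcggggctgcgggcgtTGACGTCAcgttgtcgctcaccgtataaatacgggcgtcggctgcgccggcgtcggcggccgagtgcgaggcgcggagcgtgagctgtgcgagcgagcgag
Dusp5: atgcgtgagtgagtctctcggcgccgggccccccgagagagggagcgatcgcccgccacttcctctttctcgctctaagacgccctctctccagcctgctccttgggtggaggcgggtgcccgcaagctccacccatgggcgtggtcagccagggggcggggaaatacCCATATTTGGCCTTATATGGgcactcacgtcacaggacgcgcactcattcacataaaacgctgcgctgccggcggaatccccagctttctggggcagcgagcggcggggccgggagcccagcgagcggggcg
The CRE letters were in 3.48% of all windows and in 3 of 15 windows of the list (20.0%). A kappaB match was in none of these 15 windows and in 6.60% of all windows. At that share 15 windows are too few for a count of none to show a lack. The CArG consensus was in 1.59% of all windows and in 1 of these 15, that of Dusp5. The AP-1 site TGANTCA (N is any base) was in none of the 15 and in 6.35% of all windows. Again 15 windows are too few for none to show a lack. Such matches describe the letters of a window and not binding.

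Among nuclear MAP kinase phosphatases, Dusp5 and Dusp4 were picked for their difference from WT cells. Dusp5, which acts on ERK, had 54.2 and 55.3 CPM at 8 h, against 7.74 and 6.14 CPM untreated (log2 fold change 2.98 ± 0.30). In WT cells Dusp5 had 12.6 and 12.8 CPM at 8 h, against 12.8 and 7.16 CPM untreated (difference of responses 2.59 ± 0.44, edgeR adjusted p = 0.0034). Its close relative Dusp4 had 149.9 and 165 CPM at 8 h, against 32.7 and 24.3 CPM untreated (log2 fold change 2.47 ± 0.27). In WT cells Dusp4 had 50.2 and 35.8 CPM at 8 h, against 61.1 and 38.8 CPM untreated (difference of responses 2.67 ± 0.38, edgeR adjusted p = 0.0011). In both genes the WT libraries overlapped between 8 h and untreated, while the mutant ones did not. Untreated Dusp4 was lower in both mutant libraries than in both WT ones. Dusp1, of the same class, had 37.95 and 45.4 CPM at 8 h, against 12.3 and 10.3 CPM untreated (log2 fold change 1.88 ± 0.23). In WT cells Dusp1 had 23.95 and 18.98 CPM at 8 h, against 25.5 and 13.8 CPM untreated (difference of responses 1.72 ± 0.33, edgeR adjusted p = 0.0068), and in a fit of the 8 libraries alone the adjusted p of that difference was 0.058 (edgeR). Dusp2, a further one, had 1.13 and 1.80 CPM at 8 h, against 0.246 and 0.232 CPM untreated (log2 fold change 2.56 ± 0.68), a call lost without 8 h replicate 2 (edgeR adjusted p = 0.072) and without untreated replicate 2 (0.058). In WT cells Dusp2 had 0.128 and 0.754 CPM at 8 h, against 0.145 and 0 CPM untreated. These are levels of a few counts or none, and the difference of responses did not pass the test (edgeR adjusted p = 0.95). Over the list 7 responses were more positive in the mutant and none more negative (14 and 0 with the block), against the background of 3.45% and 3.42% given above.

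Immediate early transcription factors, which respond to kinase signalling without new protein synthesis, were mostly higher even at this late time. Of 39 such genes 28 rose and 5 fell (2 fell without RelA-TA-KI 8 h replicate 2), with a median of 0.80. In WT cells 11 rose and 9 fell. The difference of responses was called positive for 17 of the 39 and negative for 2 (26 and 2 with the block). Fewer were called positive when WT untreated replicate 1 was left out. Egr2, a zinc finger factor, had 28.5 and 30.4 CPM at 8 h, against 4.79 and 7.19 CPM untreated (log2 fold change 2.29 ± 0.14). In WT cells Egr2 had 8.45 and 9.17 CPM at 8 h, against 8.27 and 7.46 CPM untreated (difference of responses 2.12 ± 0.22, edgeR adjusted p = 0.00011). Egr3, of the same family, had 9.30 and 8.78 CPM at 8 h, against 2.70 and 2.55 CPM untreated (log2 fold change 1.78 ± 0.17). In WT cells Egr3 had 1.28 and 1.89 CPM at 8 h, against 3.77 and 3.53 CPM untreated (difference of responses 2.97 ± 0.28, edgeR adjusted p = 5.4e-05), with lower levels at 8 h than untreated. Myc, a driver of growth genes, had 170.2 and 187 CPM at 8 h, against 42.4 and 32.7 CPM untreated (log2 fold change 2.25 ± 0.10). In WT cells Myc had 93.5 and 92.2 CPM at 8 h, against 50.04 and 44.6 CPM untreated (difference of responses 1.27 ± 0.14, edgeR adjusted p = 0.0002). For these 3 genes both mutant 8 h libraries exceeded all 4 WT libraries. The AP-1 subunit gene Junb had 163 and 173 CPM at 8 h, against 35.5 and 33.8 CPM untreated (log2 fold change 2.28 ± 0.10). Id3, an inhibitor of bHLH factors and a target of BMP signalling, was among those that fell, with 38.6 and 33.4 CPM at 8 h, against 135 and 134 CPM untreated (log2 fold change -1.90 ± 0.10).

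**Figure D2:**
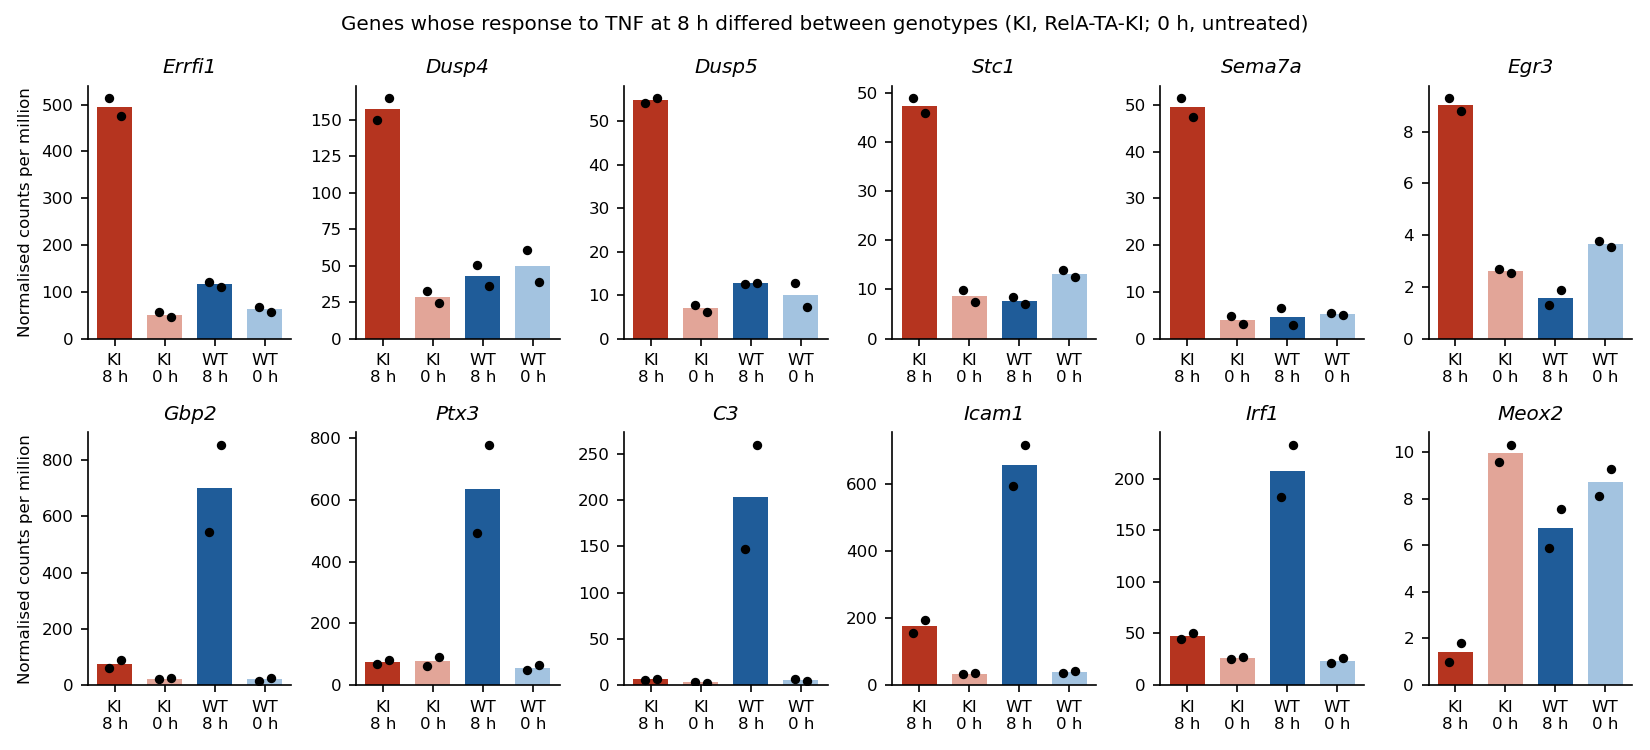
Normalised CPM in every library for 12 genes whose response differed between genotypes in the tests given in the text, each panel with its own linear axis from 0; columns run RelA-TA-KI 8 h, RelA-TA-KI untreated, WT 8 h, WT untreated, points are libraries and bars are means. In the upper 6 panels RelA-TA-KI 8 h is the highest group, as for Errfi1 at 514 and 475 CPM, and in the lower 6 panels RelA-TA-KI 8 h lies below WT 8 h.

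The genes that build ribosomes rose almost as a whole. Of 40 ribosome biogenesis genes 39 rose and none fell, 23 of them by at least 2-fold, with a median log2 fold change of 1.06. In WT cells 33 of 40 rose, with a median of 0.56. Grwd1, a ribosome assembly chaperone, had 43.98 and 46.8 CPM at 8 h, against 15.4 and 13.8 CPM untreated (log2 fold change 1.64 ± 0.17, edgeR adjusted p = 4.6e-06). Its window, chr7:45830740-45831039 on the minus strand, is shown because it holds CACGTG, the E-box letters bound by MYC and related factors. They are in capitals and begin 35 bases after the start.
Grwd1: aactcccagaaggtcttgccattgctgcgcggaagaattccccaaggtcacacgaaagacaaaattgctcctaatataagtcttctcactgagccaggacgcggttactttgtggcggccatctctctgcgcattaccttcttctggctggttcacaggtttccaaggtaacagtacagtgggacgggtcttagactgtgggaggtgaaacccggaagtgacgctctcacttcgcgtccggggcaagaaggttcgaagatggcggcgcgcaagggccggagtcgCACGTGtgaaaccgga
That E-box was found in 10 of 35 windows of the list (28.6%) and in 11.5% of all windows. Rrp12, needed for export of ribosomal subunits, had 63.5 and 67.7 CPM at 8 h, against 21.1 and 18.4 CPM untreated (log2 fold change 1.73 ± 0.22). Polr1b, a large subunit of RNA polymerase I, had 51.1 and 57.2 CPM at 8 h, against 20.4 and 16.6 CPM untreated (log2 fold change 1.55 ± 0.12). Dkc1, a pseudouridine synthase of small nucleolar particles, had 73.8 and 83.1 CPM at 8 h, against 28.6 and 26.9 CPM untreated (log2 fold change 1.50 ± 0.12). None of these genes overlapped between 8 h and untreated libraries. They were named from the 5 largest rises of the list, so that this carries no weight of its own. The member that did not pass the test was Polr1c, a polymerase subunit, with 37.6 and 33.6 CPM at 8 h, against 37.6 and 34.8 CPM untreated. Between genotypes 16 of the 40 responses were more positive in the mutant and none more negative. That count was 32 with the block and 5 in a fit of the 8 libraries alone. It was 7 without RelA-TA-KI untreated replicate 1 and 8 without WT 8 h replicate 1. It was 1 without RelA-TA-KI 8 h replicate 2, RelA-TA-KI untreated replicate 2 or WT 8 h replicate 2, and 0 without WT untreated replicate 1.

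Ribosomal protein mRNAs moved little in the same libraries. Of 39 such genes 4 rose and none fell, with a median of 0.10, and 1 or 2 rose when any of the 4 libraries was left out. Proteasome genes rose by small amounts. Of 31 core and regulatory subunits 27 rose and none fell, with a median of 0.31. Of these, 16 rose without RelA-TA-KI 8 h replicate 1, 17 without 8 h replicate 2 and 12 without untreated replicate 2. Psma6, a subunit of the core particle, had 163 and 175 CPM at 8 h, against 107 and 108 CPM untreated (log2 fold change 0.65 ± 0.07).

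Interferon-type genes rose in both genotypes. Of 50 interferon-stimulated antiviral genes 24 rose and none fell in RelA-TA-KI cells, with a median of 1.01. In WT cells 47 rose, with a median of 2.18. The mutant count varied between fits. With the block 45 rose, while 9 rose without RelA-TA-KI 8 h replicate 2, 12 without untreated replicate 1 and 12 without untreated replicate 2. Rsad2, which encodes viperin, had 44.5 and 59.8 CPM at 8 h, against 9.46 and 10.7 CPM untreated (log2 fold change 2.37 ± 0.43). Of 15 guanylate-binding proteins and immunity-related GTPases 10 rose in the mutant (6 without untreated RelA-TA-KI replicate 2) and 14 in WT cells. Gbp2, a GTPase that acts on vacuoles with microbes, had 61.95 and 87.4 CPM at 8 h, against 20.9 and 23.8 CPM untreated (log2 fold change 1.74 ± 0.31). In WT cells Gbp2 had 546 and 855 CPM at 8 h, against 14.8 and 25.5 CPM untreated (difference of responses -3.34 ± 0.44, edgeR adjusted p = 0.00065). Both WT 8 h libraries were more than 6-fold above both mutant ones. The Gbp2 window, chr3:142620413-142620712 on the plus strand, is shown for its match to the interferon-stimulated response element (ISRE), GAAA repeated after a gap of 2 bases. The match, on the opposite strand, is in capitals and its first base is 59 before the start.
Gbp2: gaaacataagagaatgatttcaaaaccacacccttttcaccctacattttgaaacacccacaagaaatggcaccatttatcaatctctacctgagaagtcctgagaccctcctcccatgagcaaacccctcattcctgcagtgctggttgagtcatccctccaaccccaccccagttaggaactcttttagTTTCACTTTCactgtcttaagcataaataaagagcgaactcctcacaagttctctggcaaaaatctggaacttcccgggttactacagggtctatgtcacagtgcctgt
ISRE letters were in all 9 windows of the GTPase list, in 19 of 38 of the antiviral list (50.0%) and in 3.82% of all windows. Gbp6, of the same family, had 2.14 and 3.38 CPM at 8 h, against 1.97 and 1.85 CPM untreated. In WT cells Gbp6 had 24.7 and 43.4 CPM at 8 h, against 0.870 and 1.31 CPM untreated (difference of responses -4.37 ± 0.80, edgeR adjusted p = 0.0057).

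Irf1, a factor that binds such elements, had 44.9 and 50.2 CPM at 8 h, against 25.1 and 27.2 CPM untreated (log2 fold change 0.86 ± 0.18). In WT cells Irf1 had 182 and 233 CPM at 8 h, against 21.8 and 25.7 CPM untreated (difference of responses -2.26 ± 0.24, edgeR adjusted p = 0.00016). Genes of MHC class I and antigen processing rose in 5 of 25 cases in the mutant and in 20 of 25 in WT cells. The mutant share of 20.0% was close to the background of 21.6%. In the mutant 16 rose with the block, while none rose without RelA-TA-KI 8 h replicate 2, 1 without untreated replicate 1 and 2 without untreated replicate 2. The difference of responses was called negative for 12 of the 25 and positive for none. That count was 20 with the block and 7 without RelA-TA-KI untreated replicate 2 or WT untreated replicate 1. Psmb10, a catalytic subunit of the immunoproteasome, had 27.3 and 34.1 CPM at 8 h, against 16.95 and 16.9 CPM untreated. In WT cells Psmb10 had 89.7 and 137 CPM at 8 h, against 12.5 and 16.3 CPM untreated (difference of responses -2.10 ± 0.29, edgeR adjusted p = 0.0011). H2-Q4, a class I chain whose reads may be shared with close paralogues, had 17.2 and 21.2 CPM at 8 h, against 8.84 and 10.7 CPM untreated. In WT cells H2-Q4 had 85.7 and 134 CPM at 8 h, against 4.93 and 8.07 CPM untreated (difference of responses -3.06 ± 0.50, edgeR adjusted p = 0.0027). The kappaB consensus was in 8 of 20 windows of this list (40.0%).

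Of 18 acute phase and complement genes 4 rose and 1 fell in the mutant (5 fell with the block). The share that rose, 22.2%, was close to the background of 21.6%. In WT cells 11 rose and 1 fell (2 with the block). The difference of responses was called negative for 6 of the 18 and positive for 1. Lcn2, which encodes the iron-binding lipocalin 2, was among those that rose, with 26 counts against 2, a ratio of 12.9 (3.24 to 113), and its call was lost without untreated RelA-TA-KI replicate 2 (edgeR adjusted p = 0.076). Genes described next were picked for their negative differences. Ptx3, a soluble pattern recognition protein, had 66.6 and 81.5 CPM at 8 h, against 61.4 and 91.8 CPM untreated (edgeR adjusted p = 0.89). In WT cells Ptx3 had 495 and 780.4 CPM at 8 h, against 47.9 and 64.1 CPM untreated (difference of responses -3.55 ± 0.34, edgeR adjusted p = 5.4e-05). All 4 mutant libraries and both untreated WT libraries were under 100 CPM, and the WT 8 h libraries alone were high. The Ptx3 window, chr3:66219637-66219936 on the plus strand, is shown because it holds a pair of overlapping kappaB matches around the start, merged in capitals.
Ptx3: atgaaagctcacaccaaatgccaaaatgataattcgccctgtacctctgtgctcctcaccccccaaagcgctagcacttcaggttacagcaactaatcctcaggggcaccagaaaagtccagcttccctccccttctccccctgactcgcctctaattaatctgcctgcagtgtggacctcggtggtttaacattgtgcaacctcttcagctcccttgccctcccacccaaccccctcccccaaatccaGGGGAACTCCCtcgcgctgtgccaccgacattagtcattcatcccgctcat
C3, the central complement component, had 5.15 and 6.87 CPM at 8 h, against 2.83 and 2.67 CPM untreated (edgeR adjusted p = 0.12, and 0.036 with the block). In WT cells C3 had 147 and 260.0 CPM at 8 h, against 6.24 and 3.83 CPM untreated (difference of responses -4.24 ± 0.77, edgeR adjusted p = 0.0057). Lbp, which carries lipopolysaccharide, had 4.15 and 3.83 CPM at 8 h, against 3.44 and 5.10 CPM untreated (edgeR adjusted p = 0.88). In WT cells Lbp had 35.5 and 58.6 CPM at 8 h, against 2.32 and 2.42 CPM untreated (difference of responses -4.40 ± 0.65, edgeR adjusted p = 0.0015). The metalloreductase gene Steap4 had 5.66 and 8.78 CPM at 8 h, against 5.53 and 4.52 CPM untreated (edgeR adjusted p = 0.42). In WT cells Steap4 had 39.96 and 64.7 CPM at 8 h, against 1.89 and 3.93 CPM untreated (difference of responses -3.57 ± 0.71, edgeR adjusted p = 0.0094). In each of these genes both WT 8 h libraries were above both mutant 8 h libraries. Pattern recognition receptors and their adaptors rose in 10 of 28 cases and fell in 1 (4 with the block). Tlr2, a receptor for bacterial lipoproteins, had 67.99 and 119 CPM at 8 h, against 14.4 and 21.4 CPM untreated (log2 fold change 2.38 ± 0.38). Cd14, a coreceptor that is also on the macrophage list, had 151 and 312 CPM at 8 h, against 25.6 and 34.2 CPM untreated (log2 fold change 2.95 ± 0.41). In both receptors 8 h replicate 2 was the higher library, as it was for the macrophage markers.

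Leukocyte adhesion molecules rose in 9 of 17 cases and none fell. Sele, which encodes E-selectin, had 14.95 and 20.9 CPM at 8 h, against 0.983 and 0.348 CPM untreated (log2 fold change 4.75 ± 0.42). Vcam1, a ligand of leukocyte integrins, had 702 and 719 CPM at 8 h, against 171 and 179 CPM untreated (log2 fold change 2.02 ± 0.16). Icam1, another such ligand, had 154 and 195 CPM at 8 h, against 31.7 and 36.6 CPM untreated (log2 fold change 2.35 ± 0.21). In WT cells Icam1 had 594 and 717 CPM at 8 h, against 35.97 and 40.9 CPM untreated (difference of responses -1.73 ± 0.29, edgeR adjusted p = 0.0036), so that the mutant rise was called but smaller. Cd44, a hyaluronan receptor, had 1551 and 1469 CPM at 8 h, against 308 and 251 CPM untreated (log2 fold change 2.43 ± 0.24).

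Matrix proteases changed in both directions. Of 21 matrix metalloproteinases and TIMPs 9 rose and 6 fell. Mmp3, stromelysin, had 91.6 and 87.8 CPM at 8 h, against 7.12 and 5.56 CPM untreated (log2 fold change 3.82 ± 0.14, edgeR adjusted p = 3.6e-10). The gelatinase gene Mmp9 had 134 and 165 CPM at 8 h, against 11.7 and 5.56 CPM untreated (log2 fold change 4.13 ± 0.46). Their inhibitor Timp1 had 488 and 447 CPM at 8 h, against 128 and 102 CPM untreated (log2 fold change 2.02 ± 0.23). Those that fell include enzymes that cut proteoglycans. Adamts5, one of these, had 108 and 101 CPM at 8 h, against 291 and 329.9 CPM untreated (log2 fold change -1.57 ± 0.10). Mmp2, a gelatinase expressed without induction in fibroblasts, had 460.1 and 414 CPM at 8 h, against 685 and 695 CPM untreated (log2 fold change -0.66 ± 0.11). Of 19 serpins and plasminogen system genes 10 rose and 2 fell (4 with the block). Plaur, the urokinase receptor, had 98.7 and 103 CPM at 8 h, against 12.9 and 11.9 CPM untreated (log2 fold change 3.02 ± 0.26).

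Prostaglandin, nitric oxide and arginine enzymes rose in 12 of 18 cases and fell in 1. The inducible cyclooxygenase Ptgs2 had 485 and 447 CPM at 8 h, against 56.9 and 27.6 CPM untreated (log2 fold change 3.47 ± 0.52). In WT cells Ptgs2 had 185 and 111 CPM at 8 h, against 148 and 59.2 CPM untreated (difference of responses 2.94 ± 0.70, edgeR adjusted p = 0.022). The call of that difference was lost in 6 of the 14 alternatives, with an adjusted p of up to 0.13 (edgeR). Ptges, a prostaglandin E synthase, had 45.5 and 74.4 CPM at 8 h, against 10.8 and 14.03 CPM untreated (log2 fold change 2.27 ± 0.25). Hpgd, which breaks prostaglandins down, was the member that fell, with 2.64 and 2.36 CPM at 8 h, against 20.1 and 35.01 CPM untreated (log2 fold change -3.46 ± 0.40). Cytokine and TNF receptors rose in 17 of 29 cases and fell in 4. Il1rl1, the interleukin-33 receptor, had 2082 and 1819 CPM at 8 h, against 109 and 64.9 CPM untreated (log2 fold change 4.49 ± 0.46, edgeR adjusted p = 4.1e-06). Tnfrsf11b, the decoy receptor osteoprotegerin, had 58.7 and 82.9 CPM at 8 h, against 13.8 and 15.4 CPM untreated (log2 fold change 2.28 ± 0.21). In WT cells Tnfrsf11b had 35.7 and 37.3 CPM at 8 h, against 27.4 and 18.3 CPM untreated (difference of responses 1.58 ± 0.29, edgeR adjusted p = 0.0065). Lifr, a receptor chain for the Lif cytokine described above, was among those that fell, with 31.3 and 34.8 CPM at 8 h, against 62.2 and 63.4 CPM untreated (log2 fold change -0.92 ± 0.18).

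Antioxidant genes rose. Of 23 antioxidant and metal stress genes 15 rose and 1 fell. Srxn1, sulfiredoxin, had 165 and 178 CPM at 8 h, against 63.5 and 60.4 CPM untreated (log2 fold change 1.47 ± 0.08, edgeR adjusted p = 1.1e-08). In WT cells Srxn1 had 97.3 and 97.5 CPM at 8 h, against 63.96 and 73.6 CPM untreated (difference of responses 0.97 ± 0.11, edgeR adjusted p = 0.00019). Txnrd1, thioredoxin reductase, had 639 and 601 CPM at 8 h, against 274 and 233 CPM untreated (log2 fold change 1.29 ± 0.14). Of 28 death receptor, caspase and BCL2 family genes, which include promoters and inhibitors of cell death, 15 rose and 3 fell. Cflar, which encodes the caspase-8 inhibitor cFLIP, had 237 and 252 CPM at 8 h, against 85.01 and 91.7 CPM untreated (log2 fold change 1.47 ± 0.09). In WT cells Cflar had 152 and 158 CPM at 8 h, against 102 and 89.1 CPM untreated (difference of responses 0.77 ± 0.13, edgeR adjusted p = 0.0043). In both Srxn1 and Cflar the mutant 8 h libraries were the highest of the 8.

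Collagen chains moved in both directions. Of 23 chains 5 rose and 4 fell (9 fell with the block, 2 without RelA-TA-KI 8 h replicate 2 and 2 without untreated replicate 1). Col1a1, the main chain of fibrillar collagen, had 11734 and 12464 CPM at 8 h, against 13961 and 14323 CPM untreated (edgeR adjusted p = 0.37, and 0.003 with the block). Col18a1, of basement membranes, had 189 and 241 CPM at 8 h, against 103 and 101 CPM untreated (log2 fold change 1.08 ± 0.15). Col8a2 had 13.3 and 14.6 CPM at 8 h, against 58.6 and 66.3 CPM untreated (log2 fold change -2.16 ± 0.28). Of 45 other matrix proteins and crosslinkers 11 rose and 8 fell (21 fell with the block), and 4 rose without RelA-TA-KI 8 h replicate 1 and 4 without untreated replicate 2. Neither share is far from the background. Tnc, the injury-associated matrix protein tenascin C, had 4695 and 4484 CPM at 8 h, against 1669 and 1449.6 CPM untreated (log2 fold change 1.56 ± 0.10, edgeR adjusted p = 5.9e-08). In WT cells Tnc had 2504 and 2713 CPM at 8 h, against 1946 and 1809 CPM untreated (difference of responses 1.08 ± 0.14, edgeR adjusted p = 0.00058). The elastin gene Eln had 148 and 131 CPM at 8 h, against 354 and 408 CPM untreated (log2 fold change -1.45 ± 0.29). Ogn, a small proteoglycan, had 196 and 183 CPM at 8 h, against 519.5 and 603 CPM untreated (log2 fold change -1.57 ± 0.09). Contractile and serum response factor target genes rose in 12 of 31 cases and fell in 3 (5 with the block), and 7 rose without 8 h replicate 1 and 6 without untreated replicate 2. Zyx, zyxin of focal adhesions, had 661 and 634 CPM at 8 h, against 331 and 274 CPM untreated (log2 fold change 1.10 ± 0.16). In WT cells Zyx had 404 and 318 CPM at 8 h, against 421 and 346 CPM untreated (difference of responses 1.18 ± 0.23, edgeR adjusted p = 0.0076). The CArG consensus was in 8 of 26 windows of this list (30.8%).

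Hox genes fell and none rose. Of 34 tested 17 fell, 12 of them by at least 2-fold, with a median of -0.60, and 11 fell without RelA-TA-KI 8 h replicate 2 and 11 without untreated replicate 1. Hox genes are numbered along their clusters, and high numbers pattern the far end of the limb. Split by number, a split made after the values were seen, 12 of 15 genes of paralogue groups 9 to 13 fell (median -1.55) and 5 of 19 genes of groups 1 to 8 fell (median -0.38). In WT cells 8 of the 15 fell (median -0.88) and 4 of the 19 (7 with the block, median -0.50). Hoxd13, the terminal gene of its cluster, had 21.6 and 16.3 CPM at 8 h, against 82.8 and 98.6 CPM untreated (log2 fold change -2.26 ± 0.13, edgeR adjusted p = 2.8e-08). In WT cells Hoxd13 had 58.5 and 53.03 CPM at 8 h, against 99.6 and 97.6 CPM untreated (difference of responses -1.44 ± 0.18, edgeR adjusted p = 0.00042). Hoxa13 had 4.27 and 3.60 CPM at 8 h, against 22.2 and 22.7 CPM untreated (log2 fold change -2.51 ± 0.18). In WT cells Hoxa13 had 11.7 and 11.3 CPM at 8 h, against 24.8 and 25.01 CPM untreated (difference of responses -1.40 ± 0.25, edgeR adjusted p = 0.0049). In both genes the untreated levels of the genotypes were close and the mutant 8 h libraries were the lowest.

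Fibroblast identity genes and mesenchymal transcription factors moved in both directions. Of 28 such genes 12 fell and 7 rose, with a median of -0.04, and 4 rose without 8 h replicate 2 and 3 without untreated replicate 2. Meox2, a homeobox factor of mesoderm, had 1.01 and 1.80 CPM at 8 h, against 9.58 and 10.3 CPM untreated (log2 fold change -2.80 ± 0.26). In WT cells Meox2 had 5.89 and 7.54 CPM at 8 h, against 8.12 and 9.28 CPM untreated (difference of responses -2.42 ± 0.34, edgeR adjusted p = 0.0011). Osr1, a factor of lateral mesoderm and limb, had 14.2 and 11.8 CPM at 8 h, against 54.2 and 61.5 CPM untreated (log2 fold change -2.16 ± 0.13). Pdpn, the surface protein podoplanin, was among those that rose, with 428 and 434 CPM at 8 h, against 169 and 167 CPM untreated (log2 fold change 1.36 ± 0.08).

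**Figure D3:**
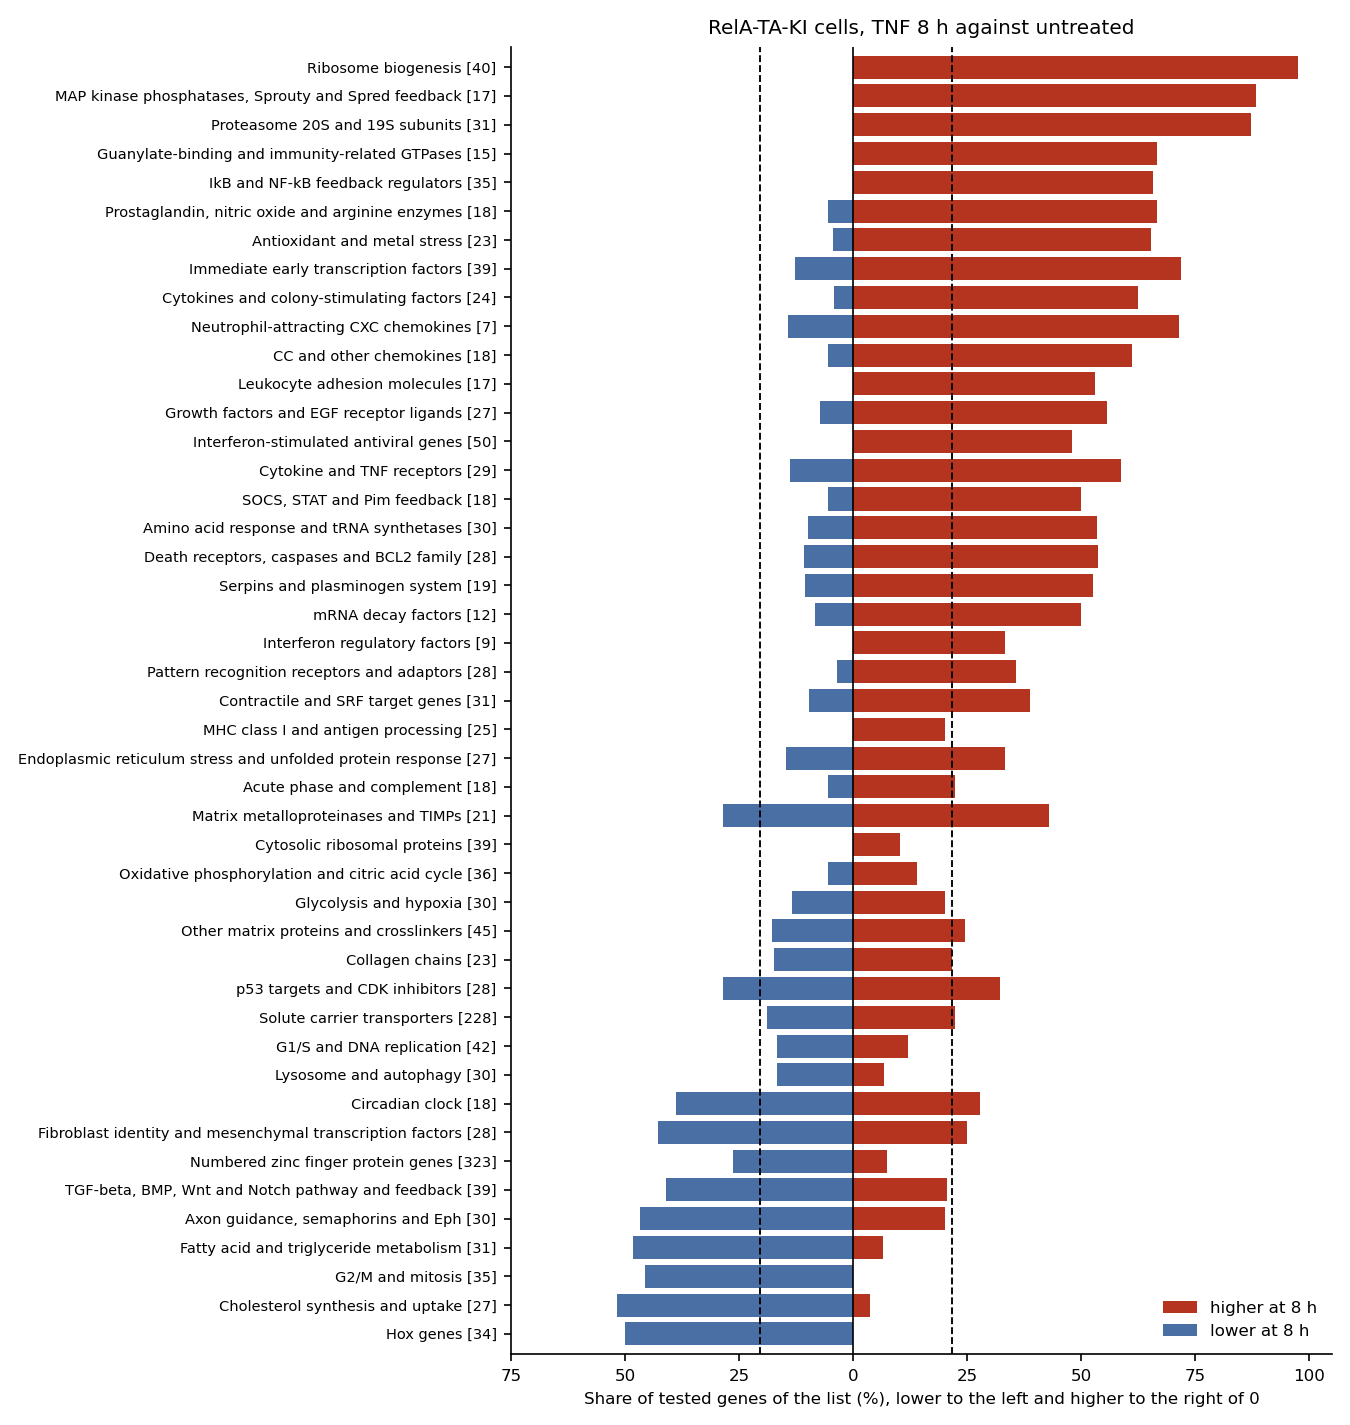
Share of tested genes of each list that rose (right of 0) or fell (left of 0) at 8 h against untreated in RelA-TA-KI cells, by the edgeR test at an adjusted p below 0.05, with the number of tested genes in brackets; dashed lines mark the background shares of 21.6% and 20.5% over all 13843 genes. Ribosome biogenesis and MAP kinase phosphatase lists have no lower member, and the cholesterol, fatty acid, mitosis and Hox lists extend mainly to the left.

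Developmental signalling genes fell in 16 of 39 cases and rose in 8, over the TGF-beta, BMP, Wnt and Notch pathways and their feedback, with a median of -0.37. In WT cells 18 fell and 4 rose. Bmp4, a ligand, had 17.7 and 12.2 CPM at 8 h, against 54.7 and 46.8 CPM untreated (log2 fold change -1.77 ± 0.19). Hey1, a Notch target, had 0.628 and 1.69 CPM at 8 h, against 8.23 and 6.95 CPM untreated (log2 fold change -2.67 ± 0.40). Tgfb3, another ligand, had 104 and 76.7 CPM at 8 h, against 305 and 264 CPM untreated (log2 fold change -1.66 ± 0.18). Axon guidance, semaphorin and Eph genes fell in 14 of 30 cases and rose in 6. Sema7a, a membrane semaphorin that binds integrins, had 51.5 and 47.5 CPM at 8 h, against 4.91 and 3.01 CPM untreated (log2 fold change 3.64 ± 0.36, edgeR adjusted p = 3.3e-06). In WT cells Sema7a had 6.53 and 2.89 CPM at 8 h, against 5.51 and 4.94 CPM untreated (difference of responses 3.79 ± 0.55, edgeR adjusted p = 0.0014), all under 7 CPM. Ntn1, netrin 1, had 49.4 and 51.2 CPM at 8 h, against 22.5 and 22.1 CPM untreated (log2 fold change 1.17 ± 0.14). In WT cells Ntn1 had 136 and 137 CPM at 8 h, against 24.1 and 26.8 CPM untreated (difference of responses -1.25 ± 0.20, edgeR adjusted p = 0.0025), and for this gene the WT response was the larger.

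Cholesterol genes fell. Of 27 genes of cholesterol synthesis and uptake 14 fell and 1 rose (2 with the block), with a median of -0.57, and 7 fell without RelA-TA-KI 8 h replicate 2 and 8 without untreated replicate 1. In WT cells 4 fell and 1 rose (18 and 2 with the block). The difference of responses was called for none of the 27 (negative for 6 with the block). Insig1, which holds back the activation of SREBP, had 82.9 and 47.3 CPM at 8 h, against 155 and 121 CPM untreated (log2 fold change -1.09 ± 0.21). Dhcr7, a late enzyme of the pathway, had 33.6 and 21.95 CPM at 8 h, against 59.7 and 56.9 CPM untreated (log2 fold change -1.08 ± 0.16). Of 31 fatty acid and triglyceride genes 15 fell and 2 rose (5 with the block). Scd2, a stearoyl-CoA desaturase, had 2005 and 1235 CPM at 8 h, against 3485 and 2782 CPM untreated (log2 fold change -0.95 ± 0.17). In these lipid genes 8 h replicate 2 was the lower library. Acadm, an enzyme of beta oxidation, had 33.2 and 25.3 CPM at 8 h, against 54.5 and 49.8 CPM untreated (log2 fold change -0.84 ± 0.12). Of 30 glycolysis and hypoxia genes 6 rose (15 with the block) and 4 fell. Without the block these shares of 20.0% and 13.3% were under the background of 21.6% and 20.5%. Hk2, hexokinase 2, had 178 and 184 CPM at 8 h, against 47.05 and 41.6 CPM untreated (log2 fold change 2.03 ± 0.20). The glucose transporter gene Slc2a1 had 205 and 199.5 CPM at 8 h, against 96.2 and 82.2 CPM untreated (log2 fold change 1.18 ± 0.21).

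Mitosis genes fell in 16 of 35 cases and none rose (1 with the block), with a median of -0.28, and 8 fell without untreated RelA-TA-KI replicate 2. In WT cells 14 fell. Kif11, a spindle motor, had 33.2 and 35.4 CPM at 8 h, against 54.2 and 57.96 CPM untreated (log2 fold change -0.71 ± 0.13). Genes of G1/S and replication rose in 5 and fell in 7 of 42 cases (9 and 11 with the block), shares under the background. The 7 were 3 without untreated replicate 2, and the 5 were 8 without 8 h replicate 1 and 3 without untreated replicate 1. Cdk6, a G1 kinase, had 308 and 285 CPM at 8 h, against 86.2 and 79.7 CPM untreated (log2 fold change 1.84 ± 0.15). Cdkn1b, which encodes the inhibitor p27, had 28.02 and 30.4 CPM at 8 h, against 80.7 and 92.2 CPM untreated (log2 fold change -1.56 ± 0.18). Cdk6 and Cdkn1b thus moved in opposite directions, and the state of the cell cycle was not tested. Among 28 p53 targets and CDK inhibitors 9 rose and 8 fell. Trp53inp1, a stress protein, had 187 and 166 CPM at 8 h, against 385 and 356 CPM untreated (log2 fold change -1.07 ± 0.10). In WT cells Trp53inp1 had 327 and 312 CPM at 8 h, against 323 and 365 CPM untreated (difference of responses -0.96 ± 0.14, edgeR adjusted p = 0.0014).

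Circadian genes moved both ways, with 5 of 18 higher and 7 lower. Arntl, which encodes the activator BMAL1, had 64.3 and 63.4 CPM at 8 h, against 26.5 and 24.5 CPM untreated (log2 fold change 1.32 ± 0.13, edgeR adjusted p = 3.3e-06). Dbp, a gene that this activator drives, had 3.52 and 3.49 CPM at 8 h, against 22.5 and 27.1 CPM untreated (log2 fold change -2.82 ± 0.20). Per3, a clock component, had 5.91 and 3.27 CPM at 8 h, against 17.7 and 17.2 CPM untreated (log2 fold change -1.94 ± 0.25). Tef, a relative of Dbp, had 36.8 and 34.001 CPM at 8 h, against 82.4 and 91.9 CPM untreated (log2 fold change -1.30 ± 0.10). In WT cells Tef had 62.4 and 48.5 CPM at 8 h, against 70.2 and 78.4 CPM untreated (difference of responses -0.88 ± 0.14, edgeR adjusted p = 0.0027). The E-box CACGTG was in 5 of 16 windows of this list (31.2%).

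The responses of both genotypes were then compared over all genes. Of 13843 genes 478 had a more positive and 473 a more negative response in RelA-TA-KI cells. That total of 951 was 2941 with the replicate block within genotype and 384 in a fit of the 8 libraries alone. It was 338 without WT untreated replicate 1, 360.0 without RelA-TA-KI untreated replicate 2, 420.0 without RelA-TA-KI 8 h replicate 2, 445 without WT 8 h replicate 2 and 584 without RelA-TA-KI untreated replicate 1. Of the genes named in the text, 68 had a called difference. The call was kept under all 14 alternatives by 39 of them and lost in at least 1 by 29, and most differences printed beside their genes are of the 39. Several of these genes were named for the size of their difference, so that the 68 do not stand for the 951. Stc1, the secreted glycoprotein stanniocalcin 1, had 49.01 and 45.9 CPM at 8 h, against 9.83 and 7.53 CPM untreated (log2 fold change 2.45 ± 0.15). In WT cells Stc1 had 8.45 and 7.04 CPM at 8 h, against 13.9 and 12.5 CPM untreated (difference of responses 3.22 ± 0.22, edgeR adjusted p = 7.3e-06). Aldh1a3, which makes retinoic acid, had 20.6 and 20.3 CPM at 8 h, against 2.70 and 1.85 CPM untreated (log2 fold change 3.16 ± 0.35). In WT cells Aldh1a3 had 2.43 and 2.39 CPM at 8 h, against 3.63 and 2.12 CPM untreated (difference of responses 3.37 ± 0.55, edgeR adjusted p = 0.0028). In both genes the mutant 8 h libraries were more than 3-fold above every WT library. Slc20a1, a phosphate transporter, had 769.8 and 695 CPM at 8 h, against 119 and 75.8 CPM untreated (log2 fold change 2.91 ± 0.23). In WT cells Slc20a1 had 295 and 252 CPM at 8 h, against 168 and 121 CPM untreated (difference of responses 1.99 ± 0.31, edgeR adjusted p = 0.0023). Among genes with negative differences, Bmp3, a BMP family ligand, had 5.15 and 4.84 CPM at 8 h, against 8.84 and 7.07 CPM untreated (edgeR adjusted p = 0.11, and 0.02 with the block). In WT cells Bmp3 had 17.5 and 32.9 CPM at 8 h, against 3.48 and 4.94 CPM untreated (difference of responses -3.22 ± 0.44, edgeR adjusted p = 0.00088). Clec14a, a C-type lectin of vessels, had 1.13 and 1.13 CPM at 8 h, against 14.004 and 11.7 CPM untreated (log2 fold change -3.49 ± 0.25). In WT cells Clec14a had 5.89 and 5.03 CPM at 8 h, against 12.3 and 13.7 CPM untreated (difference of responses -2.23 ± 0.33, edgeR adjusted p = 0.0016), a fall less deep than in the mutant. Of the 12 genes with the most positive differences 6 have a promoter window. Of these windows 2 hold the CRE letters (33.3%) and none a kappaB match or an AP-1 site. Of the 7 windows of the 12 most negative differences 3 hold a kappaB match (42.9%), 3 an ISRE and 1 an AP-1 site. Shares over all windows were 3.48% for CRE letters, 6.60% for the kappaB consensus, 3.82% for the ISRE and 6.35% for AP-1. At these shares 6 windows are too few for a count of none to show a lack. A link between letters and responses was not tested.

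**Figure D4:**
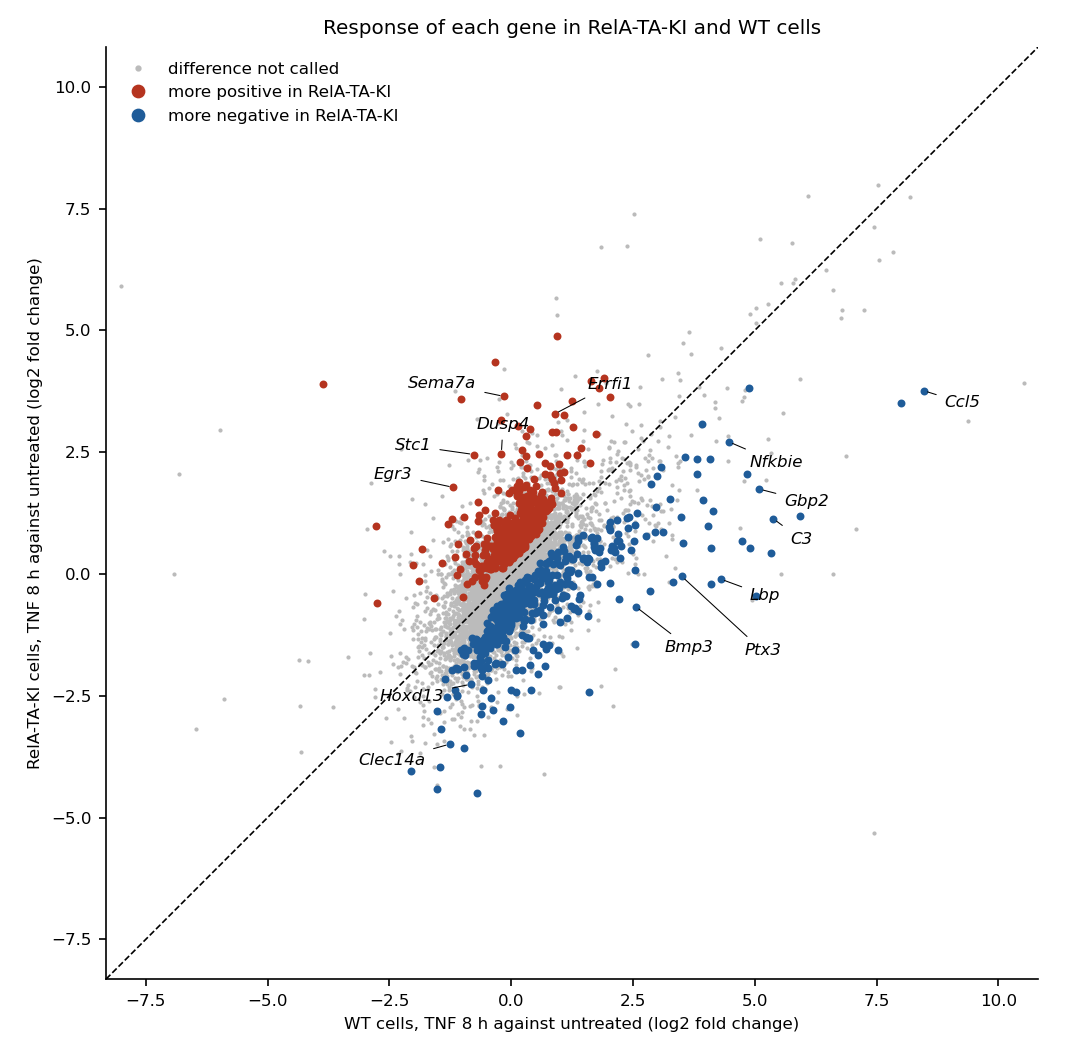
Log2 fold change at 8 h against untreated in RelA-TA-KI cells (vertical axis) and in WT cells (horizontal axis) for each of the 13843 genes tested, with called differences of response as coloured points and named genes labelled; the dashed line marks equal responses. Immune genes such as C3, Ptx3 and Gbp2 lie below the line, and Errfi1, Dusp4, Sema7a and Stc1 lie above it.

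Earlier times of the same course share the untreated libraries, so that their values are given side by side without a test. The median log2 fold change of the ribosome biogenesis list was 0.17 at 0.5 h, 0.14 at 1 h, 0.50 at 3 h and 1.06 at 8 h. For the MAP kinase phosphatase list it was 0.63 at 0.5 h, 0.58 at 1 h, 0.76 at 3 h and 0.94 at 8 h. For the antiviral list it was -0.90 at 0.5 h, -0.63 at 1 h, -0.55 at 3 h and 1.01 at 8 h. That median was thus below its untreated level at each earlier time, lowest at 0.5 h, and above it only at 8 h. For the cholesterol list it was 0.45 at 3 h and -0.57 at 8 h, on opposite sides of 0. At 3 h Errfi1 had 193 and 203 CPM, Sema7a had 8.70 and 7.80 CPM and Hoxd13 had 64.7 and 63.2 CPM. Each of these was between its untreated and its 8 h levels.

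**Figure D5:**
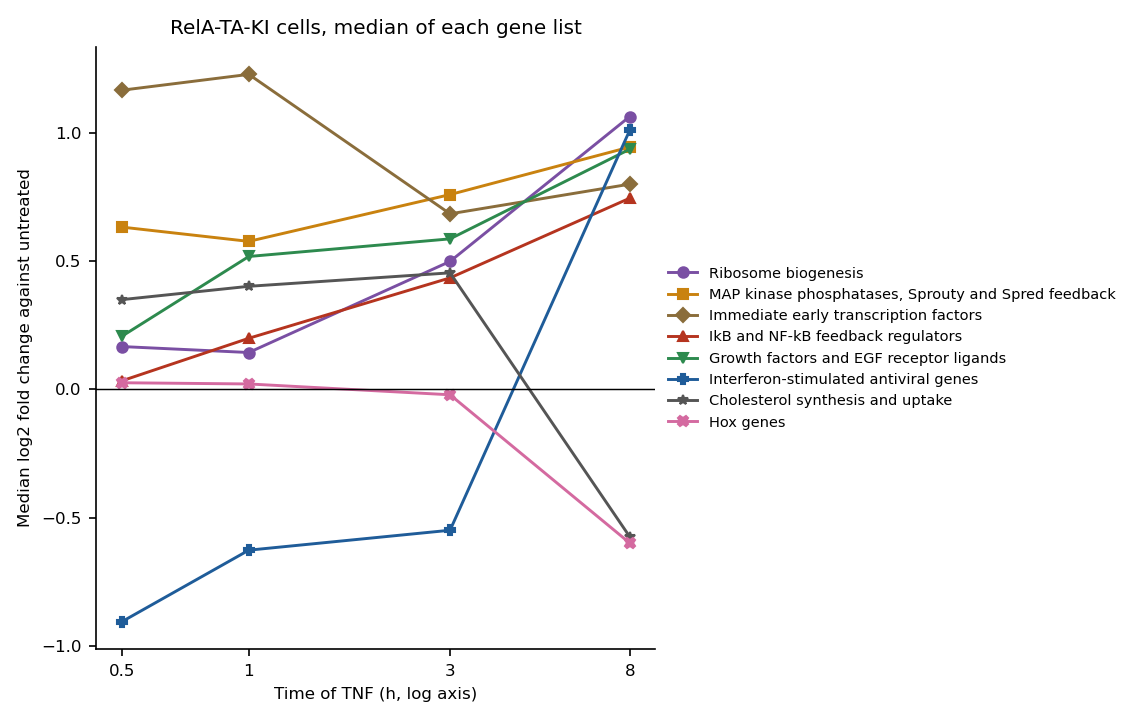
Median log2 fold change against untreated RelA-TA-KI cells for 8 gene lists at 0.5, 1, 3 and 8 h of TNF, all from the same fit of 20 libraries and sharing the 2 untreated libraries; lines join the medians of a list and carry no error. The ribosome biogenesis and antiviral lists are highest at 8 h, and the cholesterol list is above 0 at 3 h and below 0 at 8 h.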

How the data were processed

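Gene counts were deposited by the authors as a table of whole reads per gene and library. Per the submitters' processing notes, tools were cutadapt 1.9.1, STAR, featureCounts 1.4.6 and DESeq2, with the build mm10. Per the labels' protocols, libraries were KAPA Stranded mRNA-Seq with single-end 50-base reads. The strand setting and the treatment of multi-mapping reads are not given in the sources used here, so that reads of paralogues and antisense genes cannot be assigned with certainty. The 20 TNF libraries held 6715022 to 9590932 counts. The second table of the series, of other stimuli, was not used here.

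Genes were filtered with filterByExpr and tested with edgeR 4.0.16 (R 4.3.3, TMM scaling, quasi-likelihood test, 1 model with 10 groups, 20 libraries and 10 residual degrees of freedom), with Benjamini-Hochberg adjustment over 13843 genes. The biological coefficient of variation was 10.2%. Standard errors were taken from the F statistic of each test. CPM are the authors' deposited counts scaled by TMM. The fit was tested on simulated data of 13638 genes with 100 genes changed 2-fold and 100 changed 4-fold at 8 h in RelA-TA-KI cells. It called 85% and 97% of them in that comparison, with 4.7% false calls, and 59% and 96% for the difference between genotypes, with 4.9% false calls. Simulated libraries were drawn independently, without the pairing described below. Far fewer genes were changed than the 5826 called in the data, and none of low mean CPM. These rates therefore do not stand for low genes or for paired libraries. Alternatives were DESeq2 1.42.0, its size factors, no filter, fewer libraries, a replicate block and leaving out each library. Replicate numbers paired the libraries, since deviations of replicate 1 from replicate 2 correlated at 0.195 to 0.699 over all 45 pairs of groups. Where that comes from is not given in the labels.

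Named genes were taken from a rule: Rela, the 15 largest called rises and falls without overlap and the 12 most positive and most negative called differences of responses (mean of at least 20 counts), the 10 largest gains and losses in CPM, in each list up to 5 called genes each way and up to 3 uncalled genes, and every member of lists of at most 7. The rule allows 497 genes, of which the text names 135, picked with their values known. Lyz2 and Cybb were named after their values were seen. Members, lists and rule were chosen with earlier results of these data known. Promoter windows are from RefSeq (GRCm38.p6) and were searched on both strands, overlaps included. The motifs were the kappaB and CArG box consensus, the ISRE (GAAA, 2 free bases, GAAA), the AP-1 site TGANTCA, TGACGTCA and CACGTG.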

Additional observations from a re-analysis of the deposited data

Results flagged for a closer look

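The response to TNF at 8 h differed between RelA-TA-KI and WT cells for 951 of 13843 genes by the edgeR test of the difference itself, at an adjusted p below 0.05. Of these, 68 are named above and are given here. Differences are log2 fold changes of RelA-TA-KI cells minus those of WT cells. Each difference compares 2 libraries in each of the 4 groups, with the spread estimated over all 20 TNF libraries. No explanation for them was tested. The genes of the next 2 paragraphs kept their call under all 14 alternatives.

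Among the genes with a more positive response in RelA-TA-KI cells, Sema7a had a difference of 3.79, Aldh1a3 of 3.37, Stc1 of 3.22, Egr3 of 2.97, Errfi1 of 2.39, Egr2 of 2.12 and Dusp5 of 2.59. Differences were 1.99 for Slc20a1, 2.67 for Dusp4, 2.11 for Lif, 1.58 for Tnfrsf11b, 0.97 for Srxn1 and 1.18 for Zyx. Further ones were 1.08 for Tnc, 1.27 for Myc and 0.77 for Cflar.

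Among the immune genes with a more negative response in RelA-TA-KI cells, Gbp6 had a difference of -4.37, Ptx3 of -3.55, C3 of -4.24, Gbp2 of -3.34, Lbp of -4.40 and Steap4 of -3.57. Differences were -3.06 for H2-Q4, -2.10 for Psmb10, -2.26 for Irf1, -1.73 for Icam1, -1.75 for Nfkbie, -1.03 for Relb and -0.91 for Cxcl12. In genes of development and of other functions they were -3.22 for Bmp3, -2.23 for Clec14a, -1.44 for Hoxd13, -1.40 for Hoxa13, -2.52 for Angpt1, -2.42 for Meox2, -1.25 for Ntn1, -0.94 for Id3, -0.96 for Trp53inp1 and -0.88 for Tef.

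For 29 genes the call was lost in at least 1 alternative. Each is given with the highest edgeR adjusted p over the alternatives in brackets. That p came without WT untreated replicate 1 for differences of 4.61 for Areg (0.094), 2.94 for Ptgs2 (0.13), 1.76 for Plaur (0.061) and 1.30 for Cd44 (0.14), and likewise of 1.23 for Hk2 (0.085), -0.54 for Ogn (0.10), -0.67 for Adamts5 (0.054) and -0.76 for Mmp2 (0.055). It came without RelA-TA-KI untreated replicate 2 for differences of 2.89 for Hbegf (0.057), 0.76 for Arntl (0.11), 0.74 for Polr1b (0.10) and 0.65 for Junb (0.060), and likewise of 0.59 for Slc7a1 (0.10), -4.70 for Ccl5 (0.075) and -1.12 for Zfp467 (0.079). It came without RelA-TA-KI untreated replicate 1 for -1.07 for Mmp3 (0.057). It came without RelA-TA-KI 8 h replicate 2 for differences of -1.74 for Atoh8 (0.15), -1.29 for Dbp (0.067), -1.995 for Hoxd12 (0.10), -0.80 for Osr1 (0.097) and -1.32 for Per3 (0.15), and without RelA-TA-KI 8 h replicate 1 for -2.61 for 9530018H14Rik (0.074). It came without WT 8 h replicate 2 for -0.91 for Cdkn1b (0.17), -2.89 for Olfml1 (0.19) and -0.98 for Vcam1 (0.083). In a fit of the 8 libraries alone it came for 1.72 for Dusp1 (0.058), -2.50 for Evx2 (0.051), 0.40 for Hspa5 (0.10) and -1.21 for Lifr (0.068).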

How the results depend on the processing

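The count of 5826 genes called in RelA-TA-KI cells stayed within 1.5 times under every alternative tried. It was 5823 with DESeq2's size factors, 4670.0 with DESeq2's own test, 5846 with no filter on low counts, 5235 in a fit of the 4 libraries alone, 5841 in a fit of the 10 RelA-TA-KI libraries, 7375 with the replicate block within genotype and 7172 with a block shared by genotypes. It was 4037 to 4678 when each of the 4 libraries was left out. The count of 951 differences between genotypes was 975 with DESeq2's size factors and 807 with DESeq2. It moved to 1769 with no filter on low counts, 384 in a fit of the 8 libraries alone, 2941 with the replicate block within genotype and 2640.0 with the shared block, and ranged between 338 and 975 when each of the 8 libraries was left out. The causes of these moves were not tested beyond the smaller number of libraries in 2 of the settings. Changes that did not pass the test turned sign when a library was left out. Over the fits without 1 library, Lbp was -0.35 to 0.20 on the log2 scale (0.20 without untreated RelA-TA-KI replicate 2). Ptx3 was -0.30 to 0.26 (0.26 without that library and 0.088 without 8 h replicate 1), and Polr1c was -0.11 to 0.059 (0.059 without 8 h replicate 2 and 0.037 without untreated replicate 1). The difference of Dusp2, below 0 in the fit of 20 libraries, was -2.37 to 1.63 in these fits (0.23 without RelA-TA-KI 8 h replicate 1, 1.63 without WT 8 h replicate 2 and 1.03 without WT untreated replicate 2). Apart from calls and counts given in the text, the replicate block changed no other call of a named gene. Counts of 5 or fewer genes of a list moved by more than 1.5 times in many of the fits without 1 library and are not listed singly. Depth limits low genes, as the wide counting intervals of Il1b, Marco, Traf1 and Bdkrb1 show.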

Other observations

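Counts of further gene groups in RelA-TA-KI cells at 8 h are read against the background of 21.6% higher and 20.5% lower. Of 12 mRNA decay factors 6 rose and 1 fell. Zc3h12a, which encodes the endonuclease Regnase-1, had 16.7 and 21.2 CPM at 8 h, against 5.65 and 5.45 CPM untreated (log2 fold change 1.77 ± 0.18, edgeR adjusted p = 3.6e-06). Zfp36, which encodes the AU-rich element binding protein TTP, had 40.2 and 49.4 CPM at 8 h, against 18.9 and 18.4 CPM untreated (log2 fold change 1.26 ± 0.16). Of 18 SOCS, STAT and Pim genes 9 rose and 1 fell (2 with the block). Socs3, an inhibitor of cytokine receptors, had 63.7 and 118 CPM at 8 h, against 22.7 and 22.5 CPM untreated (log2 fold change 2.01 ± 0.27). Of 30 amino acid response and tRNA synthetase genes 16 rose and 3 fell, and 7 rose without untreated replicate 2. Slc7a1, a cationic amino acid transporter, had 244 and 259.9 CPM at 8 h, against 130.2 and 116 CPM untreated (log2 fold change 1.04 ± 0.10). Of 27 genes of endoplasmic reticulum stress 9 rose and 4 fell (2 fell without 8 h replicate 2). Hspa5, the chaperone BiP, had 1711 and 1874 CPM at 8 h, against 1138 and 1123 CPM untreated (log2 fold change 0.67 ± 0.06). Trib3, a pseudokinase of the stress response, moved the other way, with 44.2 and 44.6 CPM at 8 h, against 97.2 and 93.5 CPM untreated (log2 fold change -1.10 ± 0.29).

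Numbered zinc finger protein genes, most of them transcription factors, fell in 85 of 323 cases (26.3%) and rose in 24 (7.43%), against backgrounds of 20.5% and 21.6%. In WT cells 14 fell and 16 rose (25 and 25 with the block). The difference of responses was called negative for 10 of the 323 and positive for 1 (34 and 9 with the block). The negative share was close to the background of 3.42% (9.82% with the block), so that the counts per genotype show no fall particular to the mutant. The 85 were 53 without 8 h replicate 2, 48 without untreated replicate 2 and 46 by DESeq2, and the 24 were 13 without untreated replicate 2. Zfp467, known from adipocyte differentiation, had 5.40 and 5.52 CPM at 8 h, against 18.2 and 20.6 CPM untreated (log2 fold change -1.83 ± 0.18). Zfp423, a partner of BMP signalling, had 4.15 and 2.59 CPM at 8 h, against 12.2 and 12.4 CPM untreated (log2 fold change -1.87 ± 0.30). Of 228 solute carrier genes 51 rose (79 with the block) and 43 fell, and 23 to 28 fell when any of the 4 libraries was left out. These shares of 22.4% and 18.9% are close to the background. Slc40a1, the iron exporter ferroportin, had 10.7 and 9.57 CPM at 8 h, against 52.6 and 54.4 CPM untreated (log2 fold change -2.40 ± 0.25). Of 30 lysosome and autophagy genes 2 rose and 5 fell (8 and 10 with the block), shares of 6.67% and 16.7% that are under the background. Sqstm1, the autophagy receptor p62, had 1241 and 1087 CPM at 8 h, against 546 and 464 CPM untreated (log2 fold change 1.21 ± 0.09, edgeR adjusted p = 3.2e-07).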
